A study of Mus musculus with 4 samples.

Results

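Chil3 and 7 other genes used as markers of alternatively activated macrophages (Arg1, Mrc1, Retnla, Cd163, Msr1, Tgm2 and Stab1) were followed in the myeloid cells of a mouse melanoma treated with a glucocorticoid (GC). The 8 genes are 8 of the 32285 rows of the expression table. Chil3 was chosen by its difference between GC-treated and control tumors in tumor-associated macrophages (TAMs) and neutrophils, so its values in that contrast are given as a description with no test. The other 7 were taken as textbook genes of the same program, and whether their values played a part in that choice is not recorded. The question was whether Chil3 rose together with the program or apart from it.

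The 20967 melanoma line comes from mice of the C57BL/6 strain with 2 alleles, Nras+LSL-G12D (oncogenic Nras behind a stop cassette) and Tyr::CreERT2+/o (a tamoxifen-inducible Cre under the melanocyte Tyr promoter), and it was implanted intradermally into C57BL/6 wild-type hosts. The study treated 5 mice with topical clobetasol propionate ointment, a potent synthetic GC, and 5 with a control cream, and took the tumors on day 4 after treatment. The age and sex of the mice are not given in the sources used here. All tumors came from a single melanoma line. Live CD45+ leukocytes of each tumor carried their own antibody hashtag and were pooled by treatment, so that each treatment was 1 droplet channel. Channel and treatment therefore cannot be told apart. The 17100 control cells and 3500 GC cells that were loaded gave 3803 and 305 cells in the deposited table, and the 2 channels shared 0 of their cell barcodes. Tumors are numbered 1 to 5 within each group as names only.

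Alternative activation is the state that macrophages enter under interleukin-4 or interleukin-13, which signal through STAT6, in contrast to classical activation by interferon and microbial products. Chil3 (also called Ym1) encodes a secreted chitinase-like protein without chitinase activity, and it is also made by immature neutrophils and classical monocytes in the mouse. Arg1 is the arginase that turns arginine into ornithine and urea, Retnla (FIZZ1) encodes a secreted resistin-like protein, and Tgm2 encodes the cross-linking enzyme transglutaminase 2. Mrc1 (CD206), Cd163, Msr1 and Stab1 encode endocytic receptors, for mannose-bearing glycoproteins, for hemoglobin-haptoglobin complexes and, in the case of Msr1 and Stab1, for modified lipoproteins and other scavenged ligands.

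On the mouse genome build GRCm38, the GENCODE annotation places Chil3 on the minus strand of chr3:106147554-106167564, next to its paralog Chil4 on the same strand at chr3:106201490-106219507. Chil4 had 0 UMIs in all 4108 cells. A UMI is a molecular tag that marks 1 captured RNA molecule. The Chil3 and Chil4 transcripts are 94.4% identical over their aligned bases, and 74 of the 1450 windows of 90 bases in the longest Chil3 transcript also occur in Chil4. The other windows set the paralogs apart. RefSeq promoter windows of 300 bases, from 250 before the annotated start to 50 after it, were at hand for 5 of the 8 members, Chil3, Mrc1, Retnla, Cd163 and Stab1. The windows of Chil3 and Chil4 are printed because 1 of these paralogs was detected in most GC neutrophils and the other had 0, and that of Retnla because it is another secreted product of the program and held a STAT6 match. Capitals mark matches, on either strand, to AGAACA (a half-site of the GC receptor), TTGCNNAA (C/EBP factors), TTCNNNNGAA (STAT6) and TATAAA (the TATA box).
Chil3, chr3:106167515-106167814, minus strand: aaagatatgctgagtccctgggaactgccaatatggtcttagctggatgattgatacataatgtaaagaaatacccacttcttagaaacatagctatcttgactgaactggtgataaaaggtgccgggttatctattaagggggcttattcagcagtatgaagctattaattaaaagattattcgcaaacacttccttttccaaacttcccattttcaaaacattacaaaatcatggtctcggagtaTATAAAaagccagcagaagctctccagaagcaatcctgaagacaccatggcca
Chil4, chr3:106219430-106219729, minus strand: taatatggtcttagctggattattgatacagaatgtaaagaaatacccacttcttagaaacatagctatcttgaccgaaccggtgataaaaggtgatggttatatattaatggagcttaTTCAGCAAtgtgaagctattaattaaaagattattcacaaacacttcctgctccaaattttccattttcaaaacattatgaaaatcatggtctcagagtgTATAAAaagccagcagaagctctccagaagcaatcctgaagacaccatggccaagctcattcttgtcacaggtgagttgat
Retnla, chr16:48842359-48842658, plus strand: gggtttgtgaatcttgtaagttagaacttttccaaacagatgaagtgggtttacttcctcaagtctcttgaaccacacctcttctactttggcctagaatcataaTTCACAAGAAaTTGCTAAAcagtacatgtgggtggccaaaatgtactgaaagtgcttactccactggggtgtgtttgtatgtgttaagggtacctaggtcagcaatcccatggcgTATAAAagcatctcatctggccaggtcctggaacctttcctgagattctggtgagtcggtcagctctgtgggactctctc
With the annotated start as position 0, TATAAA lay at -30 to -25 in Retnla, at -31 to -26 in Chil4 and at -3 to 2 in Chil3. From TATAAA to the end of the Chil3 window, Chil3 and Chil4 have the same letters. Their different positions therefore come from where the 2 starts are annotated and not from a shifted motif. The Chil3 window held no match to the other 3 motifs, that of Chil4 held 1 C/EBP match, and that of Retnla held 1 C/EBP and 1 STAT6 match that did not overlap. Among the 5 members the AGAACA half-site occurred only in the Cd163 window, at 2 places, at -119 to -114 and at 26 to 31. Among all 32851 RefSeq windows of this length, 19.0% held the half-site, 10.8% the C/EBP motif, 6.95% the STAT6 motif and 13.6% TATAAA, so each match is a description of letters and not of a binding site.

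Values are UMIs per 10000 UMIs of a cell, averaged over the cells of a tumor, and a tumor enters a comparison only with at least 10 cells of the class. The authors' cell labels were merged into 6 myeloid classes with 2163 cells, of which 159 came from GC tumors. TAMs numbered 723 control and 43 GC cells, monocytes 449 and 21, neutrophils 162 and 44, eosinophils 478 and 32, DC 1 cells 97 and 10, and DC 2 cells 95 and 9. With the minimum of 10 cells, 2 GC tumors remained for TAMs and for neutrophils (GC 2 and GC 3), 1 for monocytes (GC 3) and 1 for eosinophils (GC 2), against 5 control tumors in each class, and neither DC class could be fitted. Median UMIs per cell were higher in GC than in control TAMs (17855 against 12883), monocytes (15990 against 12584) and neutrophils (5882 against 4221). They were 721 against 874 in eosinophils. All 9 TAM markers had UMIs in the TAMs of both groups. In neutrophils S100a8 and S100a9 were at 164 and 175 per 10000 in GC tumors, while Ly6g, a defining surface protein, had 12 UMIs in control and 0 in GC cells. In eosinophils 5 of 6 markers had UMIs and Epx, the eosinophil peroxidase, had 0. UMIs per 10000 are a share of a cell's RNA, and fewer transcripts of a gene cannot be told apart from more of all others.

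Chil3 was low in the myeloid cells of control tumors outside monocytes and high in 3 myeloid classes of GC tumors. In TAMs the 5 control tumors had 0.632, 0.584, 0.5001, 0.886 and 0.302 Chil3 UMIs per 10000, a mean of 0.581 ± 0.212 (SD, n = 5). GC tumors 2 and 3 had 19.7 and 31.2, and the 2 tumors with too few TAMs for the fit, GC 4 and GC 5, had 40.3 in 3 cells and 23.5 in 7 cells. GC tumor 1 had no TAM. Every GC tumor with TAMs thus lay above every control tumor, and the limma log2 change over the 2 GC tumors was 5.25 (SE 0.30) on the scale log2(mean + 0.1).

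In neutrophils Chil3 was close to undetected in control tumors and present in every GC tumor. Control tumors 1, 3 and 5 had 0 Chil3 UMIs, control 2 had 0.147 per 10000 from 2 UMIs and control 4 had 0.062 from 1 UMI. GC tumors 1 to 5 had 177, 61.1, 68.0, 53.5 and 83.9 per 10000, from 2, 19, 14, 2 and 7 cells. The groups did not overlap. The limma log2 change over GC 2 and GC 3 was 8.93 (SE 0.51), a value that depends on the 0.1 added before the logarithm because the control level is near 0.

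Monocytes were the class in which control cells already carried Chil3. The control tumors had 2.59, 4.68, 3.94, 8.66 and 11.4 per 10000, and GC 3, the single GC tumor with 10 monocytes, had 55.9. GC 2 had 39.1 in 8 cells, GC 5 had 104 in 2 cells, and GC 4 had 0 in its only cell. The limma log2 change was 3.34 (SE 0.65), with 1 GC tumor and hence no spread of its own in that group. Within the authors' largest monocyte cluster, the pooled level was 51.4 per 10000 in 18 GC cells (95% Poisson interval 48.9 to 54.0) and 3.87 in 311 control cells (3.68 to 4.08). These intervals, like all those below, cover counting error only. Neutrophil markers moved with Chil3 here too, with a summed level over the 10 genes of 18.7 in GC 3 and 2.00 to 4.98 in control tumors. Pooled over tumors, Mmp8, the neutrophil collagenase, was at 11.4 against 0.454, Lcn2, an iron-sequestering lipocalin, at 5.14 against 0.127 and Cxcr2 at 2.54 against 0.0778, while S100a9, Retnlg, Mmp9, Ly6g and Hdc had 0 UMIs in GC monocytes. Their part in the monocyte values was not tested.

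No such level was found in eosinophils or dendritic cells (DCs), at the depth of these classes. Eosinophils held 2 Chil3 UMIs in 478 control cells and 1 in 32 GC cells, DC 1 cells held 0 in both groups, and DC 2 cells held 2 in 95 control cells and 1 in 9 GC cells. The 40043 UMIs of all GC eosinophils and the 10 GC cells of DC 1 leave wide limits, since a count of 0 among 10 cells allows a share as high as 30%. CD8 T cells, which do not make Chil3, gave a background of 0.0675 per 10000 in GC tumors and 0.00817 in control tumors.

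**Figure D1:**
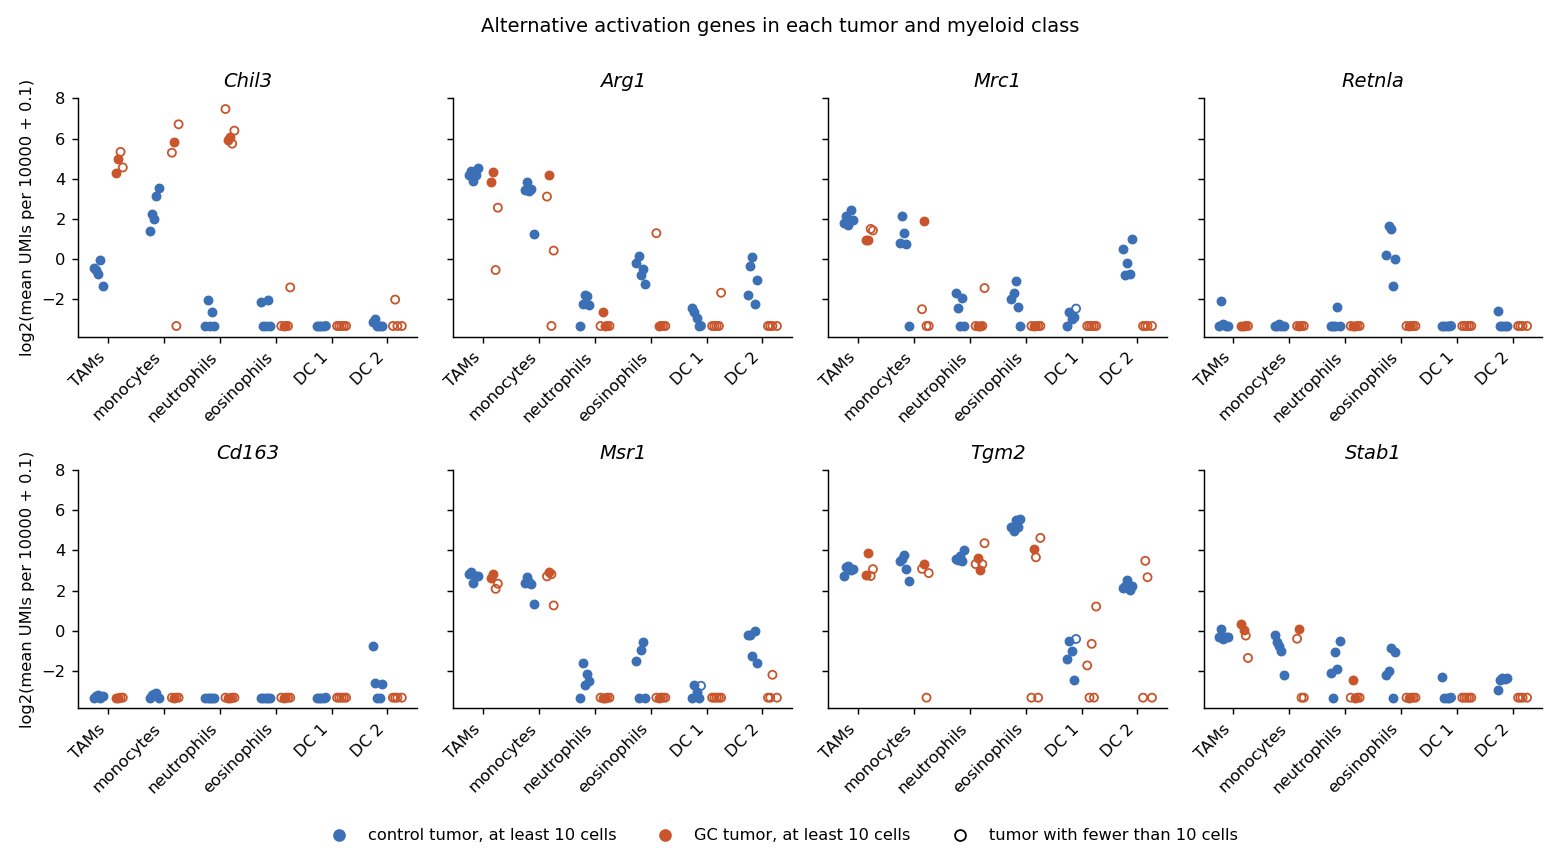
Mean level of each of the 8 genes in each tumor and myeloid class, as log2(mean UMIs per 10000 + 0.1) on the vertical axis, with control tumors in blue and GC tumors in orange; open circles are tumors with fewer than 10 cells of the class. Chil3 is the panel in which GC tumors stand above all control tumors in TAMs and neutrophils, while Arg1, Msr1 and Stab1 overlap between groups in TAMs and Mrc1 in GC tumors lies below the control tumors there.

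The share of cells with a Chil3 UMI moved with the level. It was 58.1% of GC TAMs (25 of 43, exact 95% binomial interval 42.1 to 73.0) against 15.5% of control TAMs (112 of 723, 12.9 to 18.3), and 97.7% of GC neutrophils (43 of 44, 88.0 to 99.9) against 1.85% of control neutrophils (3 of 162, 0.384 to 5.32). In monocytes it was 81.0% (17 of 21) against 46.1% (207 of 449). CD8 T cells had a UMI in 6.54% of 107 GC cells, with a median of 9741 UMIs per cell, and in 0.568% of 880 control cells, with a median of 6826. Thinned to 2000 UMIs per cell, which left out 13 control TAMs and no GC TAM, the expected shares were 45.8% and 6.11% in TAMs. They were 99.4% and 0.925% in neutrophils, without 1 GC cell and 13 control cells, and 79.2% and 30.7% in monocytes, without 4 control cells. At the same depth CD8 T cells were at 1.26% and 0.178%. The difference between the groups thus remained at equal depth.

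**Figure D2:**
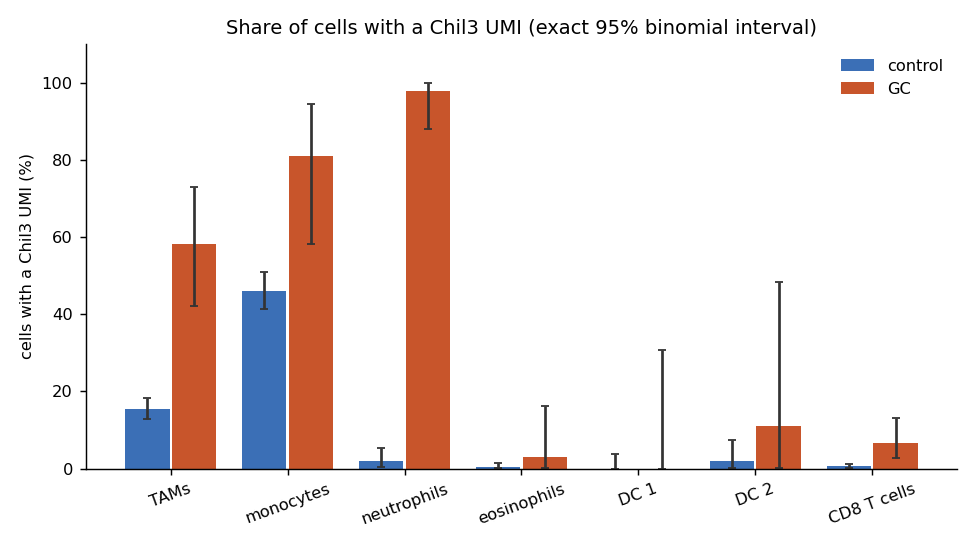
Share of cells with at least 1 Chil3 UMI (vertical axis, percent) in 6 myeloid classes and in CD8 T cells, for control (blue) and GC tumors (orange), with cells pooled over tumors; bars start at 0 and whiskers are exact 95% binomial intervals. GC TAMs, monocytes and neutrophils stand at 58.1%, 81.0% and 97.7%, and the wide whiskers of the DC classes come from 10 and 9 GC cells.

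Within TAMs the transcript was spread unevenly among cells. Among the 25 GC TAMs with Chil3 the median was 65 UMIs, 18 cells had 10 or more, and the cell with the most had 475, which was 22.1% of all Chil3 UMIs of that class. The remaining 18 GC TAMs had none. In control TAMs the median of the 112 positive cells was 2 UMIs and 13 cells had 10 or more. In GC neutrophils 42 of 44 cells had 10 or more, with a median of 34 in the positive cells.

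Neutrophil transcripts were measured in the same TAMs. Of 10 neutrophil markers, 7 had UMIs in GC TAMs and their sum was 7.35 and 9.11 per 10000 in the 2 GC tumors, against 1.18 to 1.39 in the control tumors. Most of that sum was Mmp8, at 5.74 against 0.0697, and Lcn2 was at 1.08 against 0.00107. Cxcr2, a chemokine receptor of neutrophils, was at 0.665 against 0.0289 and S100a8 at 1.00 against 0.0761, with a UMI in 44.2% and 25.6% of GC TAMs. S100a9 had 1 UMI in GC TAMs, and Retnlg, Mmp9 and Ly6g had 0. GC neutrophils had 0.459 Chil3 UMIs for each S100a8 UMI and GC TAMs had 28.0. In the 31 GC TAMs with no UMI of S100a8, S100a9 or Retnlg, Chil3 stood at 16.3 per 10000 with 16 positive cells, against 0.565 in the 604 control TAMs of that kind, and the limma log2 change fell from 5.25 to 3.98. The 12 GC TAMs with such a UMI had 56.8 per 10000, whereas the 119 control TAMs with one had 0.375, less than the control TAMs without. The part of neutrophil RNA in the Chil3 values of TAMs was not tested beyond these values.

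Monocyte transcripts moved in the same TAMs. The summed level of 7 monocyte markers was 42.2 and 55.4 per 10000 in the 2 GC tumors and 20.1 to 31.0 in the control tumors, and most of that difference was F13a1 (25.5 against 5.52 pooled). Ly6c2 was higher in GC TAMs (6.12 against 1.66), as were Vcan, Ms4a4c and Hp, whereas Ccr2 (7.98 against 10.5) and Plac8 (3.31 against 4.14) were lower. The summed level of the 9 TAM markers was 81.2 and 105 in GC tumors and 73.7 to 97.5 in control tumors. The part of cells on the border between the monocyte and TAM clusters in the Chil3 values of the TAM class was not tested.

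**Figure D3:**
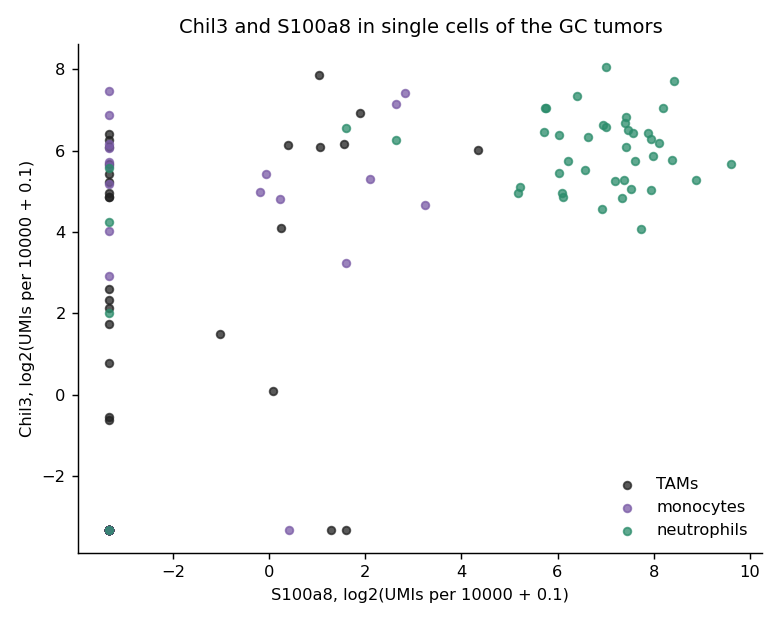
Each point is 1 cell of the GC tumors, with S100a8 on the horizontal and Chil3 on the vertical axis, both as log2(UMIs per 10000 + 0.1), for TAMs (black), monocytes (purple) and neutrophils (green); cells without a UMI lie at the lower end of an axis. Neutrophils lie at high values of both genes, and TAMs and monocytes reach Chil3 levels like those of neutrophils at S100a8 levels near or at 0.

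Arg1, the arginase of the program, overlapped between the groups in TAMs. Control tumors had 18.2, 20.7, 14.7, 18.02 and 23.4 Arg1 UMIs per 10000 and GC tumors 2 and 3 had 14.2 and 20.4, so that 1 GC value lay just below and the other within the control range. The limma log2 change was -0.14 (SE 0.18, adjusted p = 0.617; edgeR 0.09, adjusted p = 0.789), and its sign differed between the tools. Over TAMs with no UMI of S100a8, S100a9 or Retnlg the limma change was -0.64 (adjusted p = 0.0321). GC 4 and GC 5 had 0.588 in 3 cells and 5.80 in 7 cells. In monocytes GC 3 had 17.9 against 2.32 to 14.1 in control tumors, above all of them, yet with 1 GC tumor the change of 1.08 (SE 0.78) did not pass (limma adjusted p = 0.339, edgeR 0.354). Without control 5, the tumor with 19 monocytes and the lowest Arg1, the change was 0.63 and passed both (limma adjusted p = 0.0143, edgeR 0.0459), and it passed limma on the mean of the deposited log values (adjusted p = 0.0125). The smaller GC tumors had monocyte Arg1 levels of 8.56 in 8 cells (GC 2), 1.24 in 2 cells (GC 5) and 0 in 1 cell (GC 4). Within the authors' largest monocyte cluster, pooled Arg1 was lower in 18 GC cells (13.5 per 10000) than in 311 control cells (15.6). Neutrophils held 10 Arg1 UMIs in control and 1 in GC cells.

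Mrc1, the mannose receptor, was the single member that fell in TAMs by both tools. Control tumors had 3.39, 4.35, 3.12, 5.27 and 3.70 per 10000, a mean of 3.97 ± 0.861 (SD, n = 5), and GC tumors 2 and 3 had 1.86 and 1.84. GC 4 and GC 5 had 2.74 and 2.59 from 3 and 7 cells, so every GC tumor with TAMs lay below every control tumor. The log2 change was -1.04 by limma (SE 0.18, adjusted p = 0.00289) and -0.96 by edgeR (adjusted p = 0.00551), where the median over all genes was -0.12 and -0.0023. The call held in each fit that left out 1 tumor, and it was lost when the deposited log values were averaged instead (adjusted p = 0.0856). In monocytes GC 3 had 3.69, within the control range of 0 to 4.30, and GC 2 had 0.0782 in 8 cells.

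The scavenger receptors Msr1 and Stab1 also overlapped between the groups in TAMs. Msr1 was at 6.91, 7.40, 5.14, 6.44 and 6.43 per 10000 in control tumors and at 6.12 and 7.06 in GC 2 and GC 3, a log2 change of 0.03 (SE 0.14, limma adjusted p = 0.888; edgeR 0.20, adjusted p = 0.422). It had a UMI in 42 of 43 GC TAMs and in 661 of 723 control TAMs. GC 4 and GC 5, with 3 and 7 TAMs, had Msr1 levels of 4.15 and 4.98, both below every control tumor. Stab1 was at 0.711, 0.977, 0.660, 0.695 and 0.711 in control tumors and at 1.18 and 0.914 in GC 2 and GC 3, which overlapped (0.43, SE 0.18, limma adjusted p = 0.106; edgeR 0.71, adjusted p = 0.0975). In GC 4 and GC 5 Stab1 was at 0.750 and 0.293, inside and below the control range. Stab1 passed limma without GC 3 (0.60, adjusted p = 0.0300) and edgeR without control 2 (0.85, adjusted p = 0.0272), and limma on the mean of the deposited log values (adjusted p = 0.0203). In monocytes of GC 3 both lay above all 5 control tumors, Msr1 at 7.63 against 2.42 to 6.35 and Stab1 at 0.970 against 0.121 to 0.768, and neither change passed (limma adjusted p = 0.245 and 0.242). Msr1 passed limma there without control 5, with a change of 0.49. In the smaller GC tumors GC 2, GC 5 and GC 4, with 8, 2 and 1 monocytes, Msr1 was at 6.44, 2.30 and 6.93. Stab1 was at 0.662, 0 and 0 in these. Within the authors' largest monocyte cluster, pooled Msr1 was 6.79 in 18 GC cells and 6.45 in 311 control cells, and Stab1 was 0.695 and 0.669.

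Tgm2 was measured in all 6 classes, and its groups overlapped in TAMs, monocytes and neutrophils. In TAMs the control tumors had 6.44, 8.79, 9.23, 8.01 and 8.21 per 10000, while GC 2 had 6.78 and GC 3 had 14.6. GC 4 and GC 5 had 6.51 and 8.29 in 3 and 7 cells, inside the control range. GC 2 and GC 3 thus lay inside and above that range, and the log2 change of 0.30 (SE 0.24) did not pass (limma adjusted p = 0.415, edgeR 0.105). It was -0.25 without GC 3 (limma adjusted p = 0.251) and 0.85 without GC 2 (limma adjusted p = 0.00149, edgeR 7.71e-04), so that the value depended on which GC tumor was kept. In neutrophils the control tumors had 11.7, 11.5, 13.04, 11.0 and 15.9 and GC 2 and GC 3 had 12.3 and 8.09, which overlapped (-0.32, SE 0.23, limma adjusted p = 0.484; edgeR -0.46, adjusted p = 0.446). The mean of the deposited log values called it lower (limma adjusted p = 0.0135), and the share of neutrophils with a Tgm2 UMI was 56.8% of 44 GC cells against 81.5% of 162 control cells, or 48.3% against 72.5% thinned to 2000 UMIs. In monocytes GC 3 had 9.99 against 5.56 to 13.5 in control tumors. Control DC 2 cells had 3.97 to 5.74 and control DC 1 cells 0.0869 to 0.611 in the tumors with at least 10 cells.

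In control tumors eosinophils had higher Tgm2 levels than the other 5 myeloid classes, and GC 2 was below every control tumor, in a comparison with 1 GC tumor that leaves the spread between GC tumors unmeasured. The control tumors had 35.2, 31.3, 46.3, 36.0 and 46.7 per 10000. GC 2, the only GC tumor with 10 eosinophils, had 16.8, and GC 3 and GC 5 had 12.5 and 24.5 in 9 and 8 cells, all below the control range. GC 1 and GC 4 had 0 in 4 cells and 1 cell. The change was -1.20 by limma (SE 0.22, adjusted p = 6.89e-04) and -2.90 by edgeR (adjusted p = 1.07e-07), against a median over all genes of -0.87 and -1.02, so much of the limma value was shared by the class as a whole. A Tgm2 UMI was found in 15 of 32 GC and 387 of 478 control eosinophils. The summed level of the 6 eosinophil markers was 4.64 in GC 2 and 19.5 to 24.1 in control tumors, and that of the 10 neutrophil markers was 120 in GC 2 and 43.6 to 79.3 in control tumors. Among these, Hdc, the histamine-forming enzyme, was at 53.4 against 1.56 pooled, from 214 UMIs in 12.5% of the 32 GC cells, while Retnlg was lower (22.0 against 67.7) and S100a8 had 0 UMIs. Their part in the Tgm2 result was not tested.

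Retnla and Cd163 were nearly absent from TAMs in both groups. Retnla had 56 UMIs in 4 of 723 control TAMs, 55 of them in control tumor 2, and 0 in 43 GC TAMs, so that a share as high as 6.98% is allowed. In control tumors most of its UMIs were in the eosinophil class, with 97 in 14 of 478 cells and tumor levels of 1.07, 3.03, 2.71, 0.294 and 0.924 per 10000. GC eosinophils had 0 UMIs in 32 cells, so that a share of cells with a UMI as high as 9.38% is allowed, against 2.93% in control cells. With a median of 721 UMIs per cell this limits detection and not the share of cells that express the gene, and a difference was not detectable. limma called Retnla lower there (adjusted p = 0.00392) and Arg1 as well (adjusted p = 0.00761), and edgeR called neither (0.158 and 0.441). Cd163 had 3 UMIs in control TAMs, 24 UMIs in 8 of 95 control DC 2 cells, 21 of them in control tumor 1, and 0 in GC cells of TAMs, monocytes, neutrophils, eosinophils and DC 2.

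**Figure D4:**
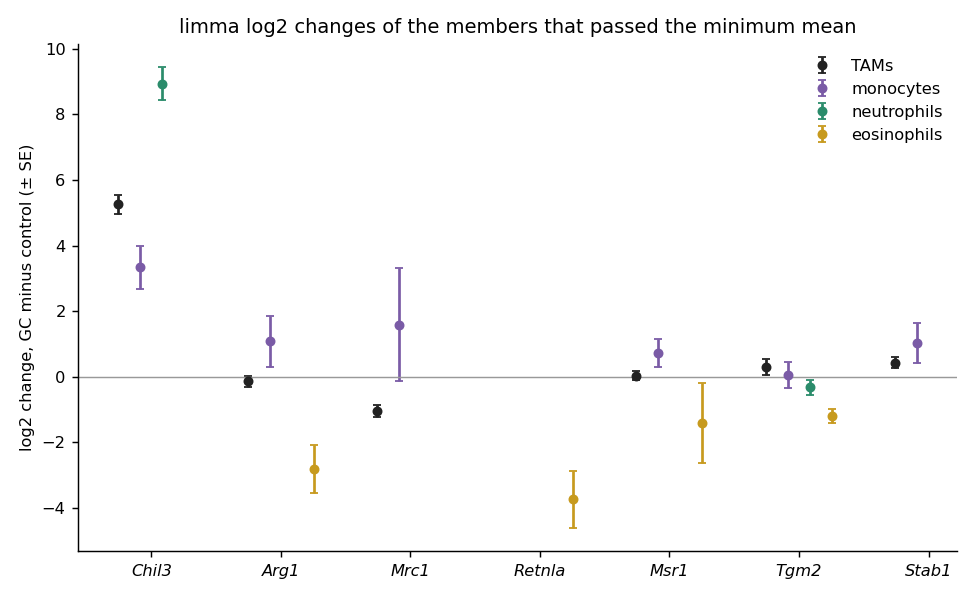
limma log2 change, GC minus control, of each member that passed the minimum mean of 0.2 UMIs per 10000 (vertical axis, points with bars of 1 SE), by class; Chil3 was chosen for this contrast and is shown without a test. Chil3 lies at 5.25 in TAMs and 8.93 in neutrophils, and the other members in TAMs lie between -1.04 (Mrc1) and 0.43 (Stab1).

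Over the set as a whole, 6 of the 8 members passed the minimum mean in TAMs, 6 in monocytes, 4 in eosinophils and 2 in neutrophils, Chil3 and Tgm2. In neutrophils Chil3 passed it only through the GC tumors, with a mean of 64.5 there and 0.0418 in control tumors. Of the 5 tested in TAMs besides Chil3, 1 was called by both tools, with 9.94% of 5988 genes so called (21.2% by limma, 11.2% by edgeR). At an unadjusted p under 0.05 there were 2 of these 5 by limma and 3 by edgeR, Mrc1 among them. Of the 5 in monocytes none was called by limma, edgeR or DESeq2, and 0 had an unadjusted p under 0.05 by limma or edgeR, with 4.8% of 5771 genes called by both (23.9% by limma, 4.92% by edgeR). Tgm2 alone was tested in neutrophils and was not called by limma, edgeR or DESeq2 or, with limma and edgeR, at an unadjusted p under 0.05, with 3.7% of 4411 genes called by both (4.83% by limma, 4.6% by edgeR). In eosinophils 3 of 4 were called by limma and 1 by both, with 5.15% of 5342 genes called by both, 42.8% by limma and 6.44% by edgeR. None of the 7 rose by both tools in these 4 fits, and with 1 tumor left out Arg1 in monocytes (without control 5) and Tgm2 in TAMs (without GC 2) did.

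Single GC TAMs carried Chil3 together with other members. Among GC TAMs, 23 of 25 cells with Chil3 had an Arg1 UMI against 10 of 18 without, 12 of 25 against 8 of 18 had Mrc1, 25 of 25 against 17 of 18 had Msr1, 18 of 25 against 9 of 18 had Stab1 and 23 of 25 against 17 of 18 had Tgm2. The macrophage transcript C1qa, a complement subunit, was found in 16 of the 25 positive cells and in 6 of the 18 others. The positive cells had a median of 18685 UMIs and the others 16104.5, and these counts were not brought to equal depth. Among control TAMs the shares with Arg1 were 74.1% of 112 positive and 84.0% of 611 other cells. In control monocytes Chil3-positive cells had Arg1 in 36.7% and Mrc1 in 17.9% of 207 cells, against 59.9% and 34.7% of the 242 others. Cells of 1 tumor are not replicates, and these counts are descriptions.

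Across the 35 profiles of a tumor and a class with at least 10 cells, Arg1, Mrc1, Msr1 and Stab1 varied together, with Pearson r of 0.939 between Arg1 and Msr1 and 0.683 between Mrc1 and Stab1, the lowest of the 6 pairs. Their r with Chil3 was 0.503, 0.302, 0.504 and 0.386. The 5 genes whose profile was most like that of Chil3 among 5950 genes were Rhou (0.869), Flt1 (0.864), Arl15 (0.755), Ugcg (0.753) and Mmp19 (0.732). Profiles of 1 tumor share a library and a channel, and profiles of 1 class share a cell type, so that r carries no p.

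Other genes of alternative activation were mixed. Over all genes, 9.94% of 5988 were called by both tools in TAMs in either direction (21.2% by limma, 11.2% by edgeR). In neutrophils 3.7% of 4411 were (4.83% by limma, 4.6% by edgeR). Of 28 further genes 13 were tested in TAMs, of which 2 rose and 3 fell by both tools, with a median limma log2 change of -0.03 against -0.12 for all genes. The coagulation factor subunit F13a1 rose by 2.20 (SE 0.24) and Socs1, a feedback inhibitor of cytokine signaling, by 1.78 (SE 0.26). F13a1 is also among the monocyte markers that were higher in the same TAMs. The metalloelastase Mmp12 fell by 1.66, the selenoprotein Selenop fell by 1.24 and Pdcd1lg2, which encodes the PD-1 ligand PD-L2, fell by 1.16. In neutrophils 6 of the 28 were tested and 0 were called by limma or edgeR, with 1 at an unadjusted p under 0.05 by each. Among 18 genes of classical activation 14 were tested in TAMs, where the chemokine gene Cxcl10 rose by 2.39 (SE 0.40) by both tools. In neutrophils Il1b was the 1 gene of 10 tested that was called, and it fell by 0.76. Of the 9 tested genes of arginine and polyamine metabolism 0 were called by both tools in TAMs (1 by limma, 0 by edgeR, and 2 and 1 at an unadjusted p under 0.05), and 1 of 6 other scavenger receptor genes was, the receptor kinase gene Axl, which fell by 2.00 (SE 0.48).

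Genes of the GC response rose in the same classes. Besides genes known to be induced through the GC receptor, the list of 12 held Nr3c1, the gene of the receptor itself. This list, like those above, was chosen with earlier results of these data known, so its counts are a description. Nr3c1 was called by neither tool in TAMs (limma log2 change 0.10) or neutrophils (-0.98). In TAMs 9.94% of 5988 genes were called by both tools in either direction. Of the 12 listed, 8 rose there by both tools and 0 fell, with a median limma log2 change of 1.74. They included Mt2 (3.70), Fkbp5 (3.04), Klf9 (2.68), Mt1 (2.37), Tsc22d3 (2.28) and Zbtb16 (2.05), which encode metallothioneins, a receptor co-chaperone, the GILZ protein and transcription factors. In neutrophils 4 of 11 rose, Mt1 (5.12), Klf9 (3.35), Zbtb16 (2.89) and Fkbp5 (2.53), with 3.7% of 4411 genes called by both tools. Some of these genes had pooled control levels under the minimum mean of 0.2. They were Klf9 and Zbtb16 in TAMs (0.174 and 0.0322) and Mt1, Klf9 and Zbtb16 in neutrophils (0.105, 0.0448 and 0.135).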

How the data were processed

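Gene expression was measured by droplet single-cell RNA sequencing of CD45+ cells in 2 channels, 1 per treatment. Per the labels, the authors used Cell Ranger 7.1.0 (build mm10), R 4.3.1, Seurat 5.0.3 and Partek; by their methods reads in introns were counted, singlets were kept by hashtag and cells far from the median quality were removed, so no doublet caller was run here. The authors deposited natural log values per gene and cell, with the UMI count, gene count and mitochondrial percent per cell and a cell type label. UMI counts were recovered from the natural log values (100% of 10330441 values above 0 were whole within 0.01, and all 4108 totals matched). The total was 139195 to 1235264 UMIs per GC tumor and 2735708 to 9869474 per control tumor. A channel column gave the group, and the hashtag gave the tumor. Hashtag libraries were not analysed here.

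Mean UMIs per 10000 per tumor and class (at least 10 cells) were tested as log2(mean + 0.1) with limma 3.58.1 (trended, robust) over all genes with a mean of at least 0.2, Benjamini-Hochberg threshold 0.05, and UMI sums with edgeR 4.0.16 (quasi-likelihood). DESeq2 1.42.0, other pseudocounts, filters, scalings and leaving out tumors were alternatives. Both fits were tested on simulated data. "Rose" and "fell" mean past both tools. limma with 1 GC tumor takes its spread from the control tumors. Each tumor was 1 mouse, and p-values measure the spread between tumors of 1 experiment. Poisson and exact binomial intervals are at 95%, a count of 0 allows 3 counts, and expected thinned shares are exact hypergeometric probabilities, added after seeing the data, as were edgeR fits without each tumor and TAMs without neutrophil UMIs. Coordinates are from GENCODE vM21 and promoters from RefSeq (GRCm38.p6). The members, gene lists and markers were chosen with earlier results of these data known. Genes named besides the 8 members are the 5 most like Chil3 and, from each list, up to 6 per direction past both tools in TAMs or neutrophils. Other genes named are markers or context. Results for some list genes are not reported here.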

Additional observations from a re-analysis of the deposited data

Results flagged for a closer look

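Among the control tumors, Stab1 in TAMs stood apart in control 2, at 0.977 UMIs per 10000 against a median of 0.711 over the 5 tumors, with a gap to the next tumor of 0.837 of the whole range. Of 24 such groups examined, 1 had a tumor this far out, and chance gives about 1 in 20.

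The Arg1 values of the 1 GC tumor in each fit lay on opposite sides of the control tumors in monocytes and eosinophils. GC 3 lay above every control tumor in monocytes and GC 2 below every control tumor in eosinophils, where it had 0 Arg1 UMIs in 10 cells, and the limma log2 changes differed by 3.89. That size depends on the 0.1 added before the logarithm, with eosinophil changes of -1.15 for 0.5 and -4.94 for 0.02. Monocytes of GC 2, GC 5 and GC 4 had Arg1 levels of 8.56, 1.24 and 0, from 8, 2 and 1 cells. GC 1, with 4 eosinophils, had 1 Arg1 UMI and a level of 2.35, above the highest control tumor (0.998). The difference was not tested.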

How the results depend on the processing

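The numbers of genes called by limma were 1270 in TAMs, 1379 in monocytes, 213 in neutrophils and 2285 in eosinophils. On UMI sums they were 669, 284, 203 and 344 by edgeR, and 735, 310, 161 and 156 by DESeq2. With tumors of at least 5 cells they were 887 in monocytes and 536 in eosinophils, and from the mean of the deposited log values 390 in neutrophils. Leaving out 1 tumor gave 867 to 2117 in TAMs, with the highest count without GC 3, 1028 to 2296 in monocytes, with the highest count without control 5, 105 to 241 in neutrophils, with the lowest count without GC 3, and 1886 to 2646 in eosinophils. The cause was not tested. In TAMs 411 of the 1270 genes were higher in GC tumors, against 563 of 1176 with median-of-ratios scaling and 419 of 669 by edgeR.

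Chil3 kept its direction in every alternative, from 2.24 to 6.03 in TAMs, 2.90 to 3.60 in monocytes and 5.63 to 11.04 in neutrophils, with the lowest values in TAMs and neutrophils from the mean of the deposited log values. Mrc1 in TAMs ranged from -1.12 to -0.37 and lost its call only with those log values. Tgm2 in eosinophils kept its call in every alternative run. The members that reversed had passed neither limma nor edgeR with all tumors, though Tgm2, Stab1 and Arg1 in TAMs and Tgm2 in neutrophils each passed a test under another alternative. Arg1 in TAMs was 0.090 by edgeR, 0.10 by DESeq2 and 1.4e-05 from the deposited log values, and without 1 tumor it ranged from -0.40 to 0.27 over both tools. Msr1 in TAMs was -0.10 with at least 5 cells and -0.19 in TAMs without neutrophil UMIs, and -0.068 to 0.25 without 1 tumor. With at least 5 cells Stab1 in TAMs was -0.079, Mrc1 in monocytes -0.62, Tgm2 in monocytes -0.067 and Tgm2 in neutrophils 0.019. Without 1 tumor Tgm2 was -0.25 to 1.07 in TAMs, -0.13 to 0.26 in monocytes and -1.23 to 0.012 in neutrophils.

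A minimum of 20 cells was not run because no GC tumor had them in any class. DC 1 and DC 2 could not be fitted. No paired analysis was possible because the tumor numbers are names and the groups do not share tumors. GC tumors gave 43 TAMs, 44 neutrophils, 32 eosinophils and 21 monocytes, and these numbers limit every GC value.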

Other observations

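In the single GC tumor with 10 monocytes, the 12 genes of the GC response had a median limma log2 change of 1.71, against -0.18 over all genes. Their changes ranged from -1.76 (Cebpd) to 5.74 (Mt2), and the list was chosen with earlier results of these data known. The spread between GC tumors is not measured there, so the calls below take it from the control tumors. The monocyte genes that follow were named after their values were seen. F13a1 was at 53.3 UMIs per 10000 in GC and 10.2 in control monocytes pooled over tumors, Nos2 at 8.62 against 2.21 and Cd38, an NAD-consuming ectoenzyme, at 2.81 against 0.266, and all 3 were called higher by both tools. Cxcl10, an interferon-induced chemokine gene, was called lower by both tools in monocytes (1.03 against 6.67 pooled), whereas in TAMs it rose (10.3 against 1.98 pooled). The difference between the 2 classes was not tested, and monocytes rest on GC 3 alone.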
